A study of Homo sapiens with 6 samples.

Results

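The genes described are 10 Eph receptors and ephrins of the H1975 transcriptome, namely EPHA1, EPHA2, EPHA4, EPHB2, EPHB3, EPHB4, EPHB6, EFNA1, EFNB1 and EFNB2, and they are 10 of the 27216 rows of the deposited expression table. They were taken by gene symbol, and the set was chosen in part on the measured difference between the groups, in which EPHA4 stood higher in adapted cells while most other ERK output genes stood lower. Their values in this contrast are therefore given as a description, with no test. The other 12 genes of the family, the genes that act with Eph receptors and the marker genes were listed by their known roles, with earlier results of these data known, and were tested where their level allowed it.

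H1975 is an established human non-small cell lung cancer line that depends on a mutant EGFR, and Osi (osimertinib) is an EGFR tyrosine kinase inhibitor. RNA was sequenced from 3 parental samples (Osi for 0 h) and 3 adapted samples (Osi for 72 h), to ask which genes differ once cells have adapted to the drug. All 6 samples came from this 1 line, given as genotype WT in the labels and grown with serum in DMEM by the labels (the methods name another medium). The labelled dose is 1000 nM, whereas the study's supplementary list of compounds gives a lower concentration. Dead cells were rinsed off before RNA extraction, so the adapted samples hold only the cells that stayed attached. The table names the parental columns for DMSO, and the sources used here do not give whether those cells stayed in DMSO for the same time, so time in culture and Osi cannot be told apart. The labels also describe digestion with RNase R, which degrades linear RNA, whereas the methods name total RNA. Nothing in the labels says that replicates came from separate cultures, so p-values measure only the spread between these samples.

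Eph receptors are receptor tyrosine kinases, and their ligands, the ephrins, sit on the membrane of the neighbouring cell, so signals pass at contacts between cells. EphA receptors mostly bind ephrin-A ligands, which are held by a lipid anchor, and EphB receptors mostly bind ephrin-B ligands, which cross the membrane. EPHA4 also binds ephrin-B ligands. Signals run both ways, forward through the receptor and in reverse through the ephrin, and they guide cell repulsion, adhesion and boundary formation. In epithelial tumours EPHA2 is known both as a receptor restrained by ephrin-A1 and as a ligand-independent receptor phosphorylated on serine by AKT and RSK kinases.

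EPHA2 and EPHA4, the members that stood farthest apart in their differences, are shown with the sequence upstream of their start sites because the data set their transcript levels side by side. Both genes lie on the minus strand. RefSeq (GRCh38.p14) places EPHA2 on chromosome 1 (16124337 to 16156069) and EPHA4 on chromosome 2 (221418027 to 221574202). For EPHA4, the RefSeq table gives a distal and a proximal start. Sequences are written 5′ to 3′ on the minus strand and end upstream of the annotated exons of the gene, and capitals mark a match to a searched motif.
EPHA2, chr1:16156088-16156319: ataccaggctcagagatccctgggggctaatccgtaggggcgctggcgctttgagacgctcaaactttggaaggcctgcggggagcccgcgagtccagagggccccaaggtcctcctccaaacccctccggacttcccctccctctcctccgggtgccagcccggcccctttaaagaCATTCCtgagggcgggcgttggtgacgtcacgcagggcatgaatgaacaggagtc
EPHA4 proximal start, chr2:221572359-221572554: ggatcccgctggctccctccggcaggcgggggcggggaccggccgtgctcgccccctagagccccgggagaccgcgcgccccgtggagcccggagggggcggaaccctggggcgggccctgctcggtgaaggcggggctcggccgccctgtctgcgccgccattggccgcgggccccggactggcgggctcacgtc
EPHA4 distal start, chr2:221574203-221574452: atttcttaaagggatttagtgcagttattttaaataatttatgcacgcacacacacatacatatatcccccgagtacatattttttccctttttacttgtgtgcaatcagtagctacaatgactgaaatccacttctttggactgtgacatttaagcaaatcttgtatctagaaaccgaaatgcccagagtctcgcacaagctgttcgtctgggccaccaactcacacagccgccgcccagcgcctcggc
In the 250 bases upstream of its start, GC content was 63.2% for EPHA2, 78.0% for the proximal start of EPHA4 and 43.2% for the distal one, against a median of 58.0% over all promoters. The motifs searched on both strands were AP-1 (TGANTCA), TEAD (GGAATG), ETS (CCGGAAGT), FOXO (TGTTTAC) and EGR1 (GCGTGGGCG). Among 35116 promoters of the same length, matches were found in 6.57%, 11.9%, 3.42%, 2.98% and 0.72%, respectively. All 10 members had an entry, with 12 start sites between them, and 1 of the 12 held a match. That was a TEAD match in EPHA2, read on the opposite strand and shown in capitals. The absence of these letters from the other windows says nothing about binding of the factors.

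Values are log2(FPKM + 1), with FPKM standing for fragments scaled to the length of the transcript and to all fragments mapped, and FPKM itself is given where levels of different genes are compared. The depth of the libraries is unknown, so no counting error can be given. The linear values summed to between 375342 and 387753 FPKM per sample. Pearson correlations across rows were 0.997 within the parental group, whereas adapted replicate 1 correlated at 0.991 with the other adapted samples, which correlated at 0.996 with each other. Adapted replicate 1 was also nearer to the parental samples (0.972 to 0.973) than were adapted replicates 2 and 3 (0.963 to 0.964). Of 12656 rows with a mean of at least 1, 7202 (56.9%) differed between the groups at an adjusted p under 0.05 (limma), 3889 (30.7%) higher and 3313 (26.2%) lower in adapted cells. The median difference over these rows was 0.03. Epithelial markers were high throughout, with the 8 markers summing to between 4320 and 4350 FPKM in parental and between 4110 and 4400 FPKM in adapted samples. Within that sum the keratins moved in opposite directions. Mean KRT7 went from 671 to 1420 FPKM, while KRT19 went from 936 to 556, KRT18 from 853 to 579 and KRT8 from 904 to 748 FPKM. EPCAM, CDH1, EGFR and MUC1 did not pass the threshold. CD3E and MS4A1 were listed at 0, and PTPRC did not pass 0.08 on the log2 scale. Of the lung lineage markers, NKX2-1 and NAPSA were at 4.99 or more in all samples. In adapted cells NKX2-1 was higher (0.47, adjusted p = 0.0117, limma) and NAPSA lower (-0.81, adjusted p = 0.00474, limma). FOXA2 went from a mean of 1.42 to 0.28. The alveolar surfactant genes SFTPB, SFTPC and SFTPA1 were near 0, and SFTPA2 stood at 0.72, 0.63 and 0.53 in parental and 0.60, 2.29 and 1.72 in adapted samples.

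EPHA2 was the most abundant Eph receptor of parental cells and stood lower in each adapted sample. Its log2(FPKM + 1) was 5.38, 5.36 and 5.31 in parental cells and 4.48, 3.98 and 3.97 in adapted cells. The groups did not overlap, and adapted replicate 1 lay closest to the parental samples. The difference of the means was -1.21 ± 0.13 (SE, n = 3 per group) on that scale, and the level went from 39.8 ± 1.07 to 16.9 ± 3.76 FPKM (SD, n = 3 each), 2.35-fold lower. Without adapted replicate 1 the log2 difference was -1.37. As these are bulk samples, fewer cells with a transcript and less of it per cell cannot be told apart.

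EPHA4, a receptor with a broad choice of ligands from both ephrin classes, showed the opposite direction. It stood at 0.24, 0.27 and 0.20 in parental and at 1.84, 2.19 and 2.1 in adapted cells on the log2(FPKM + 1) scale. The parental values were close to 0, and no adapted sample came near them. The level went from 0.177 ± 0.0307 to 3.15 ± 0.511 FPKM (SD, n = 3 each), a ratio of 17.8, and the log2 difference was 1.81 ± 0.11 (SE). With an added constant of 0.1 in place of 1, the log2 difference was 3.54, so the size of the change depends on how its low parental value is treated. EPHA4 passed the filter on low values only through its adapted samples. EPHA2 still exceeded EPHA4 in every sample, with between 195 and 267 FPKM of EPHA2 per FPKM of EPHA4 in parental cells and between 4.15 and 8.24 in adapted cells. A non-coding gene on the opposite strand, AC079834.2, overlaps EPHA4 in GENCODE v29, and whether reads were counted by strand is not given in the sources used here.

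EPHA1 (chromosome 7, 143391129 to 143408856), a receptor typical of epithelia, stood at 2.62, 2.43 and 2.52 in parental and 2.44, 2.55 and 2.69 in adapted cells. The groups overlapped, and their difference of 0.03 ± 0.09 (log2, SE) was smaller than its error. EPHA1 overlaps ZYX on the opposite strand, so its reads may be shared with that gene.

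**Figure D1:**
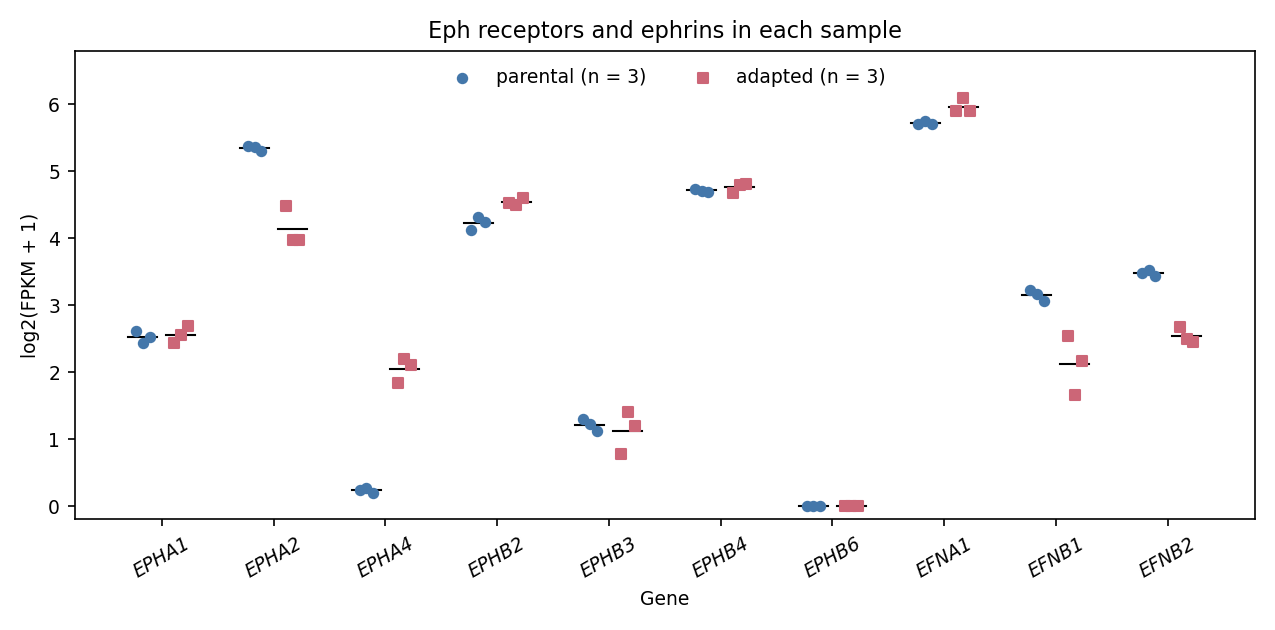
Log2(FPKM + 1) of the 10 members in each of 3 parental (circles) and 3 adapted (squares) samples, with a line at each group mean. EPHA2, EFNB1 and EFNB2 are lower and EPHA4, EPHB2 and EFNA1 higher in every adapted sample, EPHA1, EPHB3 and EPHB4 overlap, and EPHB6 is listed at 0 throughout.

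The EphB receptors stood closer together in the 2 groups than EPHA2 and EPHA4 did. EPHB4 (chromosome 7, 100802565 to 100827523), the usual partner of ephrin-B2, was at 4.74, 4.71 and 4.69 in parental and 4.68, 4.80 and 4.81 in adapted cells. The ranges overlapped, the difference was 0.05 ± 0.06 (log2, SE), and the levels were 25.2 ± 0.429 and 26.2 ± 1.37 FPKM (SD, n = 3 each). SLC12A9 overlaps EPHB4 on the opposite strand.

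EPHB2 (chromosome 1, 22710838 to 22921500), a receptor with a role in sorting of intestinal epithelial cells, was at 4.13, 4.31 and 4.24 in parental and 4.52, 4.49 and 4.60 in adapted cells. All 3 adapted values lay above the parental ones, by a narrow margin, with a difference of 0.31 ± 0.07 (log2, SE) and a ratio of 1.25 in FPKM.

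EPHB3 (chromosome 3, 184561785 to 184582408), a related receptor, was low, at 1.30, 1.22 and 1.12 in parental and 0.78, 1.40 and 1.20 in adapted cells. Its adapted samples spread on both sides of the parental ones, and the sign of the difference (-0.09 ± 0.16, log2, SE) turned to 0.09 without adapted replicate 1. EPHB6, a receptor whose kinase domain is inactive, was listed at 0 in all 6 samples and was not tested.

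EFNA1, the main ligand of EPHA2, was the most abundant member in both groups. It stood at 5.71, 5.75 and 5.71 in parental and 5.90, 6.10 and 5.90 in adapted cells. The groups did not overlap, and the step was small, at 0.24 ± 0.07 (log2, SE), from 51.9 ± 0.757 to 61.6 ± 5.17 FPKM (SD, n = 3 each). Set against its ligand, EPHA2 went from 0.768 ± 0.0214 to 0.278 ± 0.0752 FPKM per FPKM of EFNA1 (SD, n = 3 each).

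Both ephrin-B members stood lower in adapted cells. EFNB2 (chromosome 13, 106489745 to 106535662), which pairs with EPHB4 in vessel formation and also binds EPHA4, was at 3.48, 3.52 and 3.43 in parental and 2.68, 2.50 and 2.45 in adapted cells. The difference of -0.93 ± 0.08 (log2, SE) left a gap between the groups, and the level was 2.09-fold lower, at 4.84 ± 0.514 against 10.1 ± 0.358 FPKM (SD, n = 3 each). With EPHB4 nearly level, the FPKM of EPHB4 per FPKM of EFNB2 was between 2.41 and 2.55 in parental and between 4.54 and 6.08 in adapted cells.

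EFNB1 (chromosome X, 68829021 to 68842160), an ephrin that marks tissue boundaries, was at 3.22, 3.16 and 3.06 in parental and 2.54, 1.66 and 2.17 in adapted cells. No adapted sample reached the parental range, but they spread more widely than for any other member (SD 0.44), and the difference was -1.02 ± 0.20 (log2, SE). In FPKM its level was 2.25-fold lower. An antisense gene, AL138689.2, overlaps EFNB2, while no gene overlaps EFNB1 in GENCODE v29.

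Of the 9 members that passed the filter, 3 lay higher and 3 lower in adapted cells with no overlap between the groups. Over all 12656 rows, 66.3% did not overlap, and 6 of the 9 members had an adjusted p under 0.05 against 56.9% of rows. Nothing is read from these counts, since the contrast helped to choose the members. Adapted replicate 1 was the adapted sample nearest to the parental mean for 4 of the 6 non-overlapping members, and for 54.8% of the 7202 rows past the threshold.

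In parental cells the FPKM levels of the members stood in the order EFNA1, EPHA2, EPHB4, EPHB2, EFNB2, EFNB1, EPHA1, EPHB3, EPHA4 and EPHB6, and no neighbours in this order overlapped in range. In adapted cells the order was EFNA1, EPHB4, EPHB2, EPHA2, EPHA1, EFNB2, EFNB1, EPHA4, EPHB3 and EPHB6. EPHA2 thus stood behind both EPHB4 and EPHB2 there, though only narrowly behind EPHB2 in adapted replicate 1 (21.3 against 22.0 FPKM). The ranges of EPHA1 and EFNB2, of EFNB2 and EFNB1, and of EFNB1 and EPHA4 overlapped in adapted cells, and those neighbours are not separated beyond their spread.

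Of the other 12 genes of the family, 7 passed the filter, EPHA7 and EFNB3 among them only through their adapted samples. The remaining 5 had a mean of at least 1 in both groups and all differed past the threshold, 3 higher and 2 lower in adapted cells, beside 30.7% and 26.2% of all rows. Their median difference was 0.37 on the log2 scale against 0.03 over all rows. With no filter on low values, 5 of the 12 passed the threshold, 4 higher and 1 lower, beside 8016 of all 27216 rows in that fit. EPHA3 was listed at 0 in all samples, and EPHA5, EPHA6, EPHA8 and EPHB1 did not pass 0.21 on the log2 scale in any sample.

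EPHA7, a receptor best known from axon guidance, rose from 0.41, 0.41 and 0.32 to 1.41, 2.78 and 2.45 on the log2(FPKM + 1) scale. Adapted replicate 1 was the lowest of the adapted samples, and the difference was 1.84 ± 0.32 (SE, adjusted p = 0.0256, limma, in the fit of all rows with no filter, and 0.00217 with it). EPHA10, a receptor with an inactive kinase domain, rose from 1.44 ± 0.0449 to 3.38 ± 0.252 FPKM (SD, n = 3 each), a log2 difference of 0.84 (adjusted p = 0.000143, limma). EPHA4 and these 2 other EphA receptors were thus all low in parental cells and higher in each adapted sample.

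Among ephrin-A genes, EFNA4 rose from 7.04 ± 0.574 to 15.1 ± 0.765 FPKM (SD, n = 3 each), with a log2 difference of 1.01 ± 0.08 (SE, adjusted p = 5.82e-05, limma). EFNA2 fell from 3.74 ± 0.488 to 1.44 ± 0.244 FPKM, with a log2 difference of -0.96 (adjusted p = 0.000376, limma). EFNA5 rose by 0.37 (adjusted p = 0.0333) and EFNA3 fell by 0.45 (adjusted p = 0.0357) on the log2 scale (limma, n = 3 per group). The calls of EFNA3 and EFNA5 were each lost when any 1 of the 3 parental samples, adapted replicate 2 or adapted replicate 3 was left out. EFNA3 and EFNA4 both overlap AL691442.1, a gene annotated on the same strand across both of them, so reads may be split among the 3. AL691442.1 stood at 0.144 FPKM in parental replicate 1, at 1.35 FPKM in adapted replicate 3 and at 0 in the other samples. EFNA3 was lowest in that same adapted replicate 3, at 0.759 FPKM against 1.56 and 1.27 in adapted replicates 1 and 2. In these 2 replicates, with AL691442.1 at 0, EFNA3 also stood below its lowest parental value (1.75 FPKM). EFNA4 was highest in adapted replicate 3, at 15.7 FPKM against 14.3 and 15.5 in adapted replicates 1 and 2. The part of such a split of reads in the lower EFNA3 was not tested. EFNA4 (155063740 to 155069553), EFNA3 (155078837 to 155087538) and EFNA1 (155127876 to 155134899) lie in this order on chromosome 1 in RefSeq (GRCh38.p14), and of these neighbours EFNA4 and EFNA1 stood higher and EFNA3 lower in adapted cells.

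EFNB3, the remaining ephrin-B, rose from 0.95, 0.90 and 0.86 to 2.26, 2.44 and 2.54 on the log2(FPKM + 1) scale. All adapted samples stood well above the parental ones, by 1.51 ± 0.10 (SE, adjusted p = 0.000986, limma, in the fit of all rows with no filter, and 2.55e-05 with it), against the lower values of EFNB1 and EFNB2.

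**Figure D2:**
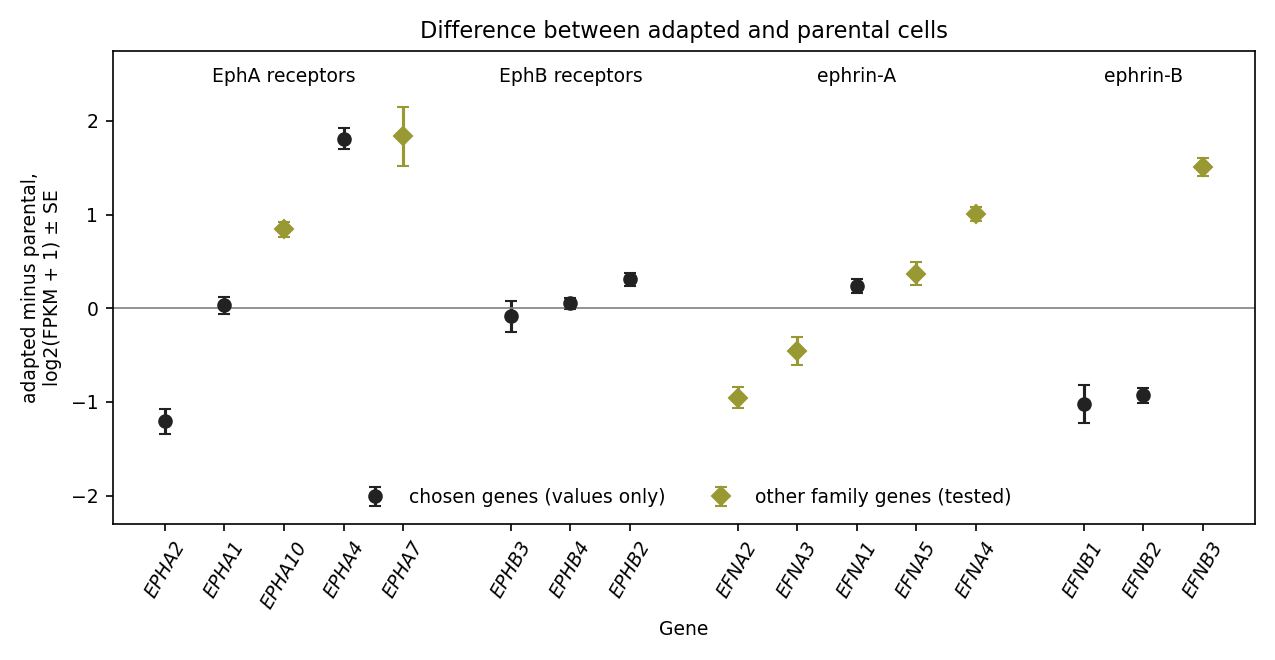
Adapted minus parental difference in log2(FPKM + 1) with its limma standard error for the 16 family genes that passed the filter, grouped by class. Within the EphA and the ephrin-B class the genes stand on both sides of 0, from -1.21 (EPHA2) to 1.84 (EPHA7) and from -1.02 (EFNB1) to 1.51 (EFNB3).

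Summed over all genes of a class, EphA receptor FPKM was 47.8, 46.6 and 45.2 in parental and 33.4, 32.7 and 31.0 in adapted cells. EPHA2 made up 85.6% ± 0.497 of that sum before and 52.1% ± 10.0 after 72 h (SD, n = 3 each). The share of EPHA4 went from 0.38% ± 0.061 to 9.75% ± 1.77, that of EPHA7 from 0.646% ± 0.091 to 12.5% ± 6.73, and that of EPHA10 from 3.1% ± 0.11 to 10.4% ± 0.45. The summed EphA transcript level was thus lower in adapted cells, and a smaller part of it came from EPHA2. A lower EPHA2 raises the share of each of the others, so shares are read beside the levels above.

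EphB receptor FPKM summed to 44.4 ± 1.06 (parental) and 49.6 ± 2.13 (adapted, SD, n = 3 each), nearly all of it EPHB4 and EPHB2. Ephrin-A FPKM summed to 69.6 ± 1.35 (parental) and 86.0 ± 6.06 (adapted, SD, n = 3 each), of which EFNA1 gave 74.6% ± 0.673 and 71.5% ± 1.49. Ephrin-B FPKM summed to 18.8 ± 0.819 and 12.7 ± 1.4. Within it, EFNB3 went from 4.62% ± 0.153 to 34.7% ± 6.72 of the sum, close to the 38.3% ± 3.24 of EFNB2 in adapted cells.

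**Figure D3:**
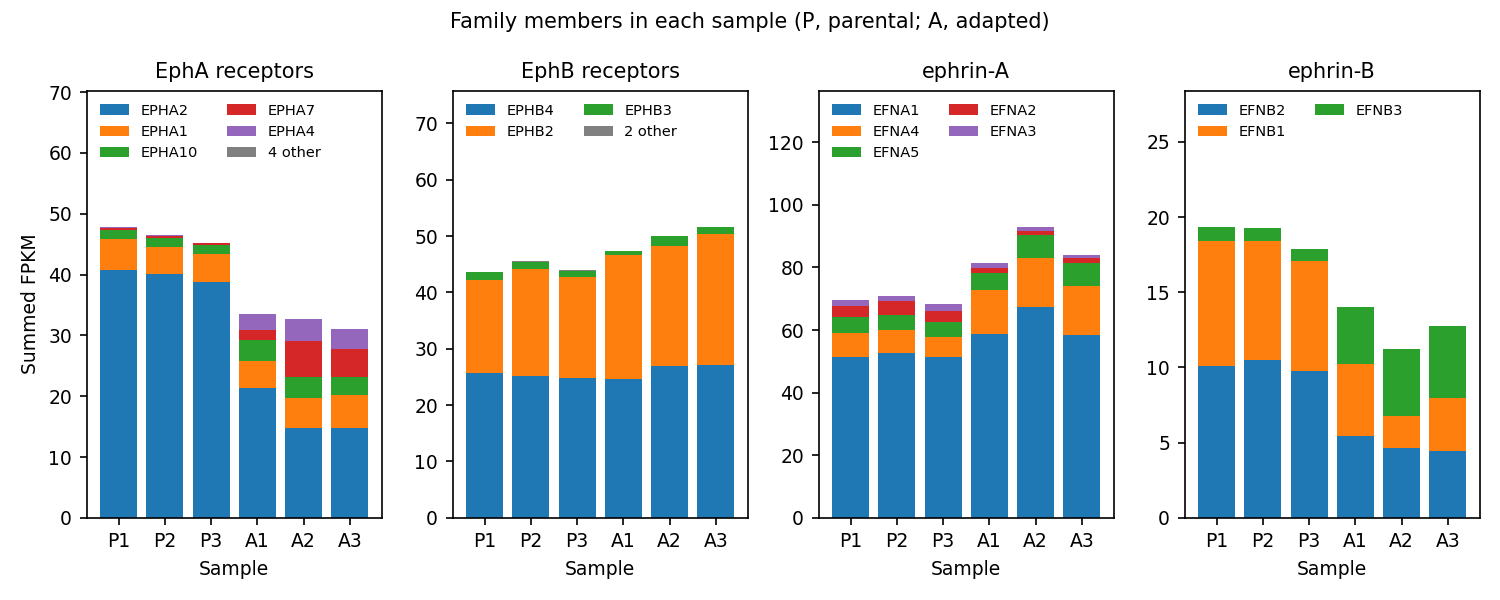
Summed FPKM per sample for EphA receptors, EphB receptors, ephrin-A and ephrin-B genes, stacked by gene (P, parental; A, adapted; genes under 0.5 FPKM in all samples are pooled as other). The EphA and ephrin-B bars are shorter in all adapted samples, the EphB and ephrin-A bars taller, and EPHA4, EPHA7, EPHA10 and EFNB3 take larger parts of the adapted bars.

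Genes that act with Eph receptors and ephrins were read from 5 lists holding 82 genes, of which 71 passed the filter. In adapted cells 21 of them were higher and 22 lower past the threshold, or 60.6% against 56.9% of all rows, and their median difference was 0.05 against 0.03. The 22 lower genes include AKT2, whose call depends on a constant in its parental values, given below. With such constants subtracted, 42 of the 71 passed, beside 7129 of the 12656 rows. As a whole the partner genes moved about as often as other rows, and in both directions.

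Adaptors and exchange factors of forward signalling, which carry the receptor signal to the cytoskeleton, were the list with the most genes tested and the most lower genes. Of 21 tested, 5 rose and 10 fell past the threshold, where 30.7% of all rows were higher and 26.2% lower. In both directions that is 71.4%, beside 56.9% of all rows, with a median of -0.14 over all 21. VAV3 and TIAM1, exchange factors for Rac, fell by 1.45 (adjusted p = 0.0168) and 1.09 (adjusted p = 1.97e-05) on the log2 scale (limma, n = 3 per group), and GRB7, an adaptor that binds Eph receptors, fell by 1.0 (adjusted p = 0.000115). VAV3 was at 1.87 in adapted replicate 1 and at 0.38 and 0.21 in adapted replicates 2 and 3. It passed the filter only through its parental samples, as its adapted mean was 0.82. The call of VAV3 was lost with no filter (adjusted p = 0.0941, limma) and without parental replicate 3, adapted replicate 2 or adapted replicate 3. ELMO2, NCK2 and ITSN1, which link receptors to the cytoskeleton, rose by 0.80, 0.69 and 0.57 (adjusted p = 0.000248, 8.74e-05 and 0.000252).

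Of 17 kinases and GTPases tested, 3 rose and 5 fell past the threshold (47.1%, beside 56.9% of all rows). The median over all 17 was 0.09. FYN, a Src family kinase, rose from 1.74, 1.74 and 1.66 to 3.0, 3.17 and 3.36 on the log2 scale (adjusted p = 3.9e-05, limma), while the related LYN and YES1 fell by 0.57 (adjusted p = 0.00431) and 0.37 (adjusted p = 0.00488). LIMK1, which phosphorylates cofilin, fell by 0.27 (adjusted p = 0.0135), a call lost without parental replicate 1. ABL2 and ABL1, cytoskeletal kinases, rose by 0.41 and 0.23 (adjusted p = 0.00181 and 0.0204), and the call of ABL1 was lost without any 1 of the parental samples or adapted replicate 3.

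Of 15 genes of shedding and turnover tested, 6 rose and 2 fell past the threshold (53.3%, beside 56.9% of all rows). The median over all 15 was 0.07. The phosphatases PTPN1 and PTPRF rose by 0.85 and 0.83 (adjusted p = 2.31e-05 and 0.000103, limma), and both are known to remove phosphate from Eph receptors. Of the ubiquitin ligases that take down active receptors, CBLB rose by 0.88 (adjusted p = 0.00368) and CBL fell by 0.45 (adjusted p = 0.000739). ADAM10, a protease that cleaves ephrin-A, did not pass the threshold (adjusted p = 0.165), and ADAM17 fell by 0.24 (adjusted p = 0.0267), a call lost under several alternatives. ADAM12, named after its values were seen, did not pass the filter and stood at 0.129 FPKM in parental and 1.64 FPKM in adapted cells. MMP14, a protease of the same list that also did not pass the filter, went the other way, from 0.592 to 0.214 FPKM.

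Of 12 genes of reverse signalling tested, 5 rose and 3 fell past the threshold (66.7%, beside 56.9% of all rows). The median over all 12 was -0.01. RGS3, which binds the tail of ephrin-B and damps G protein signals, fell from 4.32, 4.33 and 4.29 to 2.70, 2.39 and 2.37 on the log2 scale (adjusted p = 1.16e-05, limma), and SDCBP (syntenin), a PDZ protein of the same tail, fell by 0.56 (adjusted p = 0.00154). CLDN1, a tight junction protein that associates with ephrin-B1, rose from 3.66, 3.70 and 3.65 to 5.30, 5.74 and 5.78 (adjusted p = 2.83e-05). CAV1 rose by 0.87 (adjusted p = 0.00089), and STAT3 fell by 0.16 (adjusted p = 0.049), a call lost under most alternatives. The other genes of the list past the threshold, NCK2, PICK1 and DVL2, rose by 0.69, 0.29 and 0.32 (adjusted p = 8.74e-05, 0.0208 and 0.00668, limma). GRIP1 did not pass it (adjusted p = 0.28). RGS3, SDCBP and the 2 ephrin-B members thus stood lower in adapted cells, while CLDN1, CAV1, NCK2, PICK1, DVL2 and EFNB3 stood higher.

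The last list held 8 tested kinases from the AKT, RSK, MSK and PKA families, several of which phosphorylate EPHA2 on serine. As deposited, 3 rose and 2 fell past the threshold (62.5%, beside 56.9% of all rows), with a median of 0.01 over all 8. AKT2 is 1 of the 2 that fell, and its call depends on a constant in its row, given below. The share is therefore not read as higher than that of all rows. AKT1 and RPS6KA4 (MSK2) rose by 0.45 and 0.34 (adjusted p = 0.000634 and 0.00529, limma), and RPS6KA3 (RSK2) fell by 0.30 (adjusted p = 0.029), a call lost without any 1 of the parental samples, with no filter (adjusted p = 0.0901) and after scaling to equal sums without mitochondrially encoded genes (adjusted p = 0.0673). PRKACB, a catalytic subunit of PKA, rose by 0.22 (adjusted p = 0.0365), and its call was lost with no filter (adjusted p = 0.0525) and without any 1 of the parental samples or adapted replicate 2. In the row of AKT2 the 3 parental values are shifted by a constant of 0.2. As deposited AKT2 fell by 0.20 (adjusted p = 0.0383, limma), and with the constant subtracted it did not pass the threshold (adjusted p = 0.963). No Eph or ephrin row held such a constant.

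**Figure D4:**
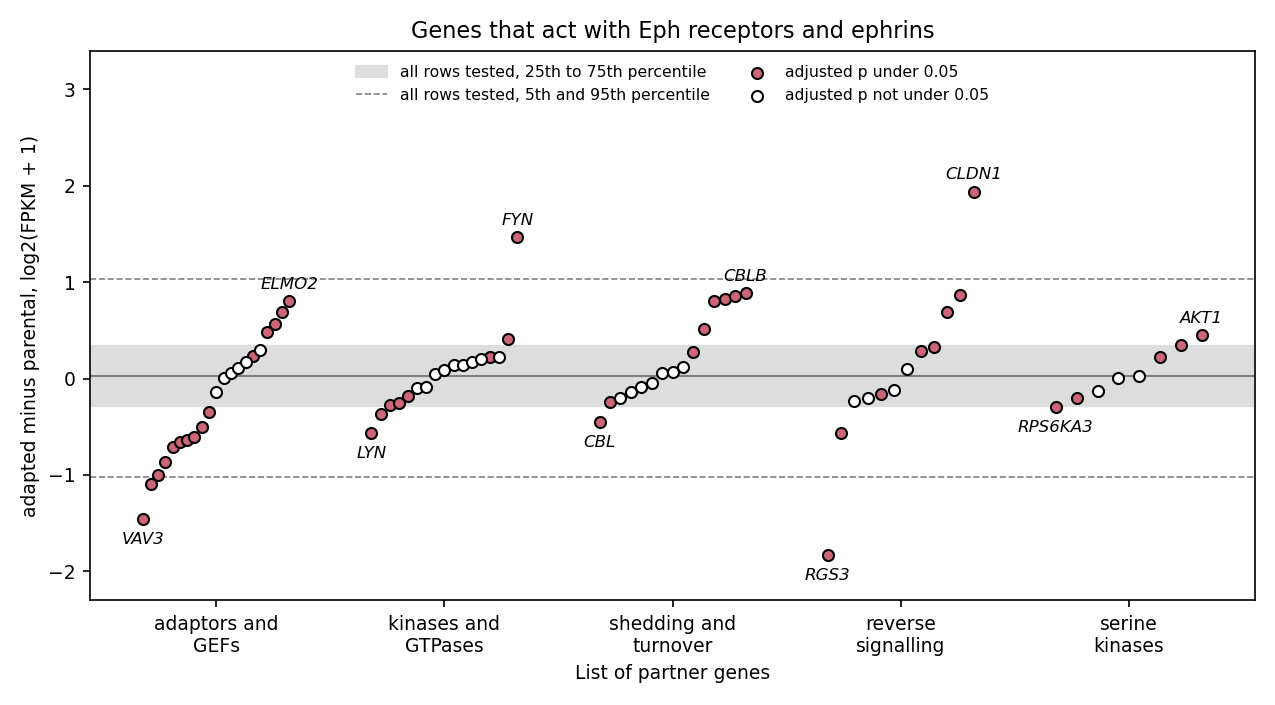
Adapted minus parental difference in log2(FPKM + 1) of the tested genes in 5 lists of Eph and ephrin partners, filled where the limma adjusted p was under 0.05, over the spread of all rows tested (band, 25th to 75th percentile; dashed lines, 5th and 95th). RGS3 and VAV3 lie below and FYN and CLDN1 above the dashed lines at -1.02 and 1.03, with TIAM1 just under the lower one.

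EPHA2 and EPHA4 belong to a set of 10 genes whose transcripts are read as output of ERK signalling, the pathway below EGFR, and the set's other 8 genes were part of the choice of EPHA4, so they too are described without a test. DUSP6, a phosphatase of ERK, was at 3.91, 3.84 and 3.82 in parental and 1.02, 0.92 and 0.61 in adapted cells on the log2(FPKM + 1) scale. The transcription factors ETV4 and ETV5 differed by -2.62 and -2.43, and PHLDA1 and the signalling inhibitor SPRY4 by -1.68 and -1.62. These 5 genes lay lower in every adapted sample, and the -1.21 of EPHA2 was smaller than any of them.

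DUSP4, CCND1 and SPRY2 overlapped between the groups, with differences of -0.42 ± 0.22, -0.31 ± 0.14 and 0.12 ± 0.09 (log2, SE). For DUSP4 and CCND1, adapted replicate 1 lay within or above the parental values while adapted replicates 2 and 3 lay below them. Without that sample the differences were -0.70 and -0.47. EPHA4 was the gene of the 10 with the highest difference (1.81), and SPRY2 came next. In the comparison of all samples 5 of the 8 had an adjusted p under 0.05, all lower, beside 26.2% of all rows. Of these, DUSP6 and SPRY4 passed the filter only through their parental samples (adapted means 0.85 and 0.41). Nothing is read from that count, since these genes were part of the choice.

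**Figure D5:**
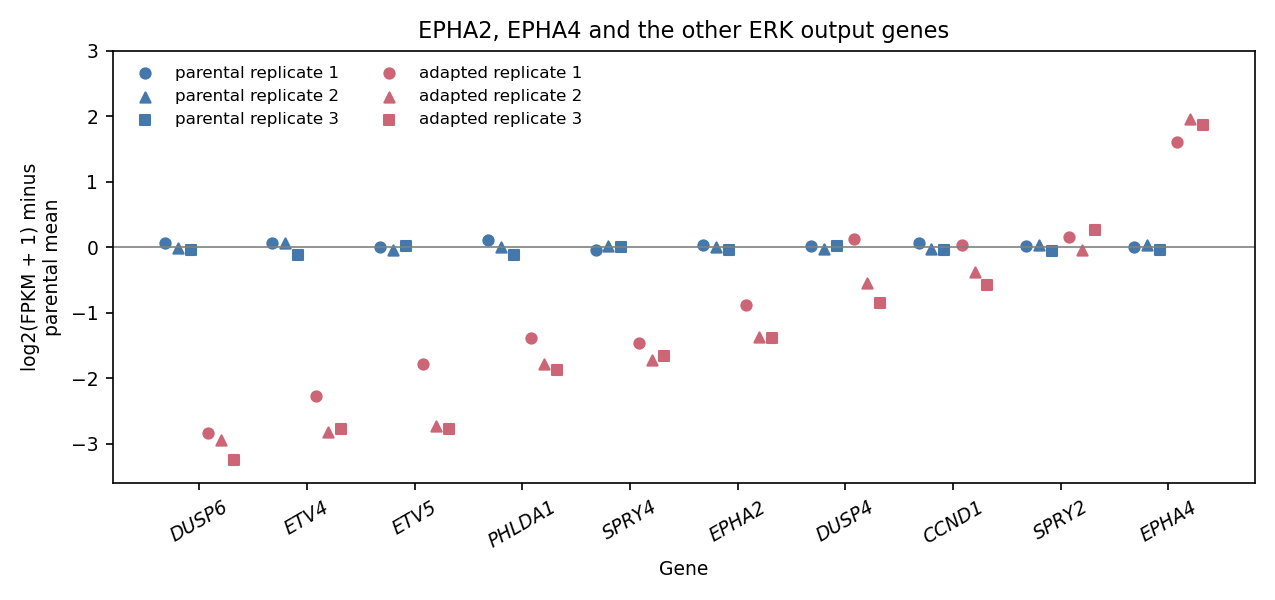
Log2(FPKM + 1) of 10 ERK output genes in each sample after subtracting the parental mean of the gene, ordered by the mean of the adapted samples. EPHA2 lies between SPRY4 and DUSP4, EPHA4 stands alone above the parental level by 1.60 to 1.96, and adapted replicate 1 (circles) lies nearest to 0 in most genes.

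The genes with the pattern most like that of EPHA4 over the 6 samples, measured as the distance between log2 values after subtracting the parental mean and sought among 11706 genes, were PAPLN, DKK3, TIMP2, GLUL and PLCE1, at distances of 0.12 to 0.19. PAPLN, DKK3 and TIMP2 encode secreted proteins, and GLUL encodes glutamine synthetase. TIMP2 went from 5.17 to 6.97 and DKK3 from 1.16 to 2.97 in mean log2(FPKM + 1). The genes nearest to EPHA2 were HHLA2, TACC3, NCAPD3, VNN2 and LMNB1, at 0.05 to 0.13. TACC3, NCAPD3 and LMNB1 encode proteins of the spindle, of chromosome condensation and of the nuclear lamina. TACC3 went from 5.91 to 4.67. As the distance is taken over 6 samples in 2 groups, it mainly ranks genes by the size of their difference.

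Markers of other cell types moved in adapted samples as well. The 7 fibroblast markers summed to between 3.04 and 3.17 FPKM in parental and between 8.6 and 9.33 FPKM in adapted samples, of which COL1A1 was the only one with a mean of at least 1, and 5 of the 7 stayed under 1 on the log2 scale in every sample. The 6 immune markers summed to between 74.6 and 76.9 and between 14.8 and 29.8 FPKM, nearly all of it CD68, a lysosomal protein that is not restricted to immune cells. The 5 endothelial markers summed to at most 3.51 FPKM in any sample, and moved both ways, as CDH5 went from 0.19, 0.27 and 0.16 to 1.19, 2.08 and 1.87 on the log2 scale and PECAM1 from 1.28, 1.4 and 1.0 to 0.07, 0.09 and 0.11. EPHA4, EPHA7 and EFNB3 were higher in the same samples, and the part of these markers in their values was not tested.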

How the data were processed

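RNA of H1975 cells was sequenced in 3 parental (Osi, 0 h) and 3 adapted (Osi, 72 h) samples. The authors deposited 1 table of 27216 rows with log2 values, replicates not pooled. From the values, the unit was taken as log2(FPKM + 1), and FPKM was obtained by inverting it. The submitters' processing notes list STAR, Bowtie2 2.1.0, edgeR and hg38 with no roles, and the quantifier, annotation and strand setting are not given in the sources used here. Columns were matched to samples by group and replicate number.

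Rows with a mean of at least 1 (12656) were compared with limma 3.58.1 in R 4.3.3 (lmFit, eBayes with an intensity trend), unpaired and two-sided, with Benjamini-Hochberg adjustment over all of them and a threshold of 0.05. The authors named DESeq2 in their methods, which was not used, since it needs counts. A difference on this scale understates the change of low genes. In 147 rows, none of them an Eph or ephrin gene, the values of 1 group hold an added constant, and these were kept as deposited. SE is the moderated standard error of limma, and SD is over the 3 samples of a group.

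The members and the gene lists were chosen with earlier results of these data known. Genes were named by a rule: all members, the rest of the family, up to 3 genes of each partner list that rose most and 3 that fell most past the threshold, the ERK output genes, and the 5 genes nearest to EPHA4 and to the member with the lowest difference. Other genes are background, or a limit of a result. A gene of the partner lists is not reported here and was left out of their counts. Each result was recomputed without a filter or with a mean of at least 3, with a pseudocount of 0.1, after quantile normalization or scaling to equal sums without mitochondrially encoded genes, without the trend, with a block for replicate number, without each sample in turn, and with constants subtracted or their rows dropped. Promoters came from a RefSeq table (GRCh38.p14), and those of EPHA10 and EFNB3 were not analysed here. Overlapping genes came from GENCODE v29. Motifs were searched in Python 3.11.15.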

Additional observations from a re-analysis of the deposited data

How the results depend on the processing

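Among all rows, the number past the threshold lay between 6761 and 8016 under every alternative fit to all samples except the stricter filter, and between 5763 and 8370 when 1 sample was left out. With a mean of at least 3, fewer rows were tested and 4532 passed. Of the rest of the family only EFNA4 was tested there, and it passed. Of the ERK output genes only PHLDA1, SPRY2 and CCND1 were tested, and PHLDA1 passed. The median member difference, the counts over the rest of the family, the partners and the ERK output genes otherwise stayed within the spread between replicates or within 1.5 times their value. Of the member differences, those of EPHA4 (3.54) and EFNB2 (-1.05) moved by more than the spread between replicates, both with a pseudocount of 0.1. No member with a gap between the groups changed sign. With the replicate number as a block, 6761 rows passed, and the calls of EFNA3, ADAM17, AKT2, STAT3 and PRKACB were lost (adjusted p = 0.0621, 0.0573, 0.0598, 0.0956 and 0.0619, limma). Deviations of samples with the same number correlated at -0.05, -0.03 and -0.02, so the numbers were not taken to pair the samples. EFNA3 (adjusted p = 0.119) and EFNA5 (adjusted p = 0.107) were also lost with no filter. Unknown depth limits the lowest values, foremost those of EPHA4 and EPHA7 in parental cells.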
